A study of Mus musculus with 8 samples.

Results

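The arrays labelled as wild-type mesonephric tubules in this mouse series are described here on their own. They are 5 of the 8 arrays, chosen by their labels as wild-type replicates 1 to 5, with no other array used. All 5 came from embryos of strain C57/BL6 with a wild type phenotype, and the series set them beside p21 knockout embryos of that strain to study programmed senescence in development. Tubules were dissected out of frozen sections stained with toluidine blue, total RNA was isolated with the Arcturus Pico Pure kit, and Cy3-labelled material was hybridised to 1-colour Agilent arrays. The labels give no embryo, stage, sex or pooling, so the spread between these 5 arrays may be technical, biological or both. The tissue name is that of the labels: genes of lens, forebrain, muscle, cartilage and epidermis were high on some arrays, as given below. How much of each sample was tubule was not tested. Nothing was tested: with a single group, the values below are levels, counts and spreads.

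The mesonephros is the transient second kidney of the embryo, which drains into the nephric (Wolffian) duct and lies against the gonad, the coelomic lining and the dorsal body wall. Most of its tubules regress, and some persist in the male as ducts next to the testis. Cell cycle arrest with high Cdkn1a, which encodes the Cdk inhibitor p21, and lysosomal beta-galactosidase activity were described as features of the senescence programme in this tissue.

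Levels are log2 intensities minus the 75th percentile of the same array, so a gene at 0 is as bright as the probe at that percentile and a difference of 1 is a 2-fold difference. Each is given as mean ± SD over the 5 arrays (n = 5) or as the values of replicates 1 to 5 in that order. A probe's brightness depends on its sequence, so an order of levels is an order of probe signals and not of transcript numbers. The scanner software judged each spot as well above background or not; on the 5 arrays, 82.6%, 86.0%, 82.4%, 87.0% and 89.3% of probes were, and no spot was saturated. Replicates 1, 2 and 3 shared slide 1, replicate 4 was on slide 2 and replicate 5 on slide 3, so that for replicates 4 and 5 the slide and the array cannot be told apart. The median local background was 38.0, 44.0 and 45.0 intensity units on slide 1, 121.5 on slide 2 and 91.0 on slide 3. Across 41492 probes the pairs of arrays correlated at 0.889 to 0.945 (Pearson's r, a description across probes that share array design and sequence).

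Of 19657 genes with a symbol, 15965 (81.2%) were well above background on all 5 arrays, 2710 on 1 to 4 arrays and 982 (5.0%) on none. The median gene lay at -1.10, and 6958 genes (35.4%) had a mean level above 0. The genes above background on all 5 arrays included 391 of 1047 olfactory receptor genes and 76 of 218 vomeronasal receptor genes. The counts and medians of each group below are read against these shares.

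The brightest signals did not belong to genes known for abundance in kidney, blood or mesenchyme. The highest mean levels were those of Hexim2, an inhibitor of the elongation factor P-TEFb, at 7.63 ± 0.28, Sp110, a nuclear body protein, at 7.62 ± 0.32, Proser3 at 7.58 ± 0.25, F10, the clotting factor X, at 7.54 ± 0.39, and the tachykinin receptor gene Tacr2 at 7.5 ± 0.26. Ubtf, Ms4a4c, Zfp663, Slc17a5 and Creb5 completed the first 10. Among the 30 brightest, 21 genes had a second probe on the array, and in all 21 that probe was far dimmer: the gap was 4.89 to 15.4 log2 units with a median of 9.6, and the second probes had a median level of -2.17. Skint7, for example, read 7.39 from its bright probe and -8.02 from the other.

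These 30 probes also moved together from array to array. Replicate 1 was the highest array for 26 of them, against 22.7% of all genes above background on at least 3 arrays. Replicate 2 was the lowest for 29, against 19.6%. Ribosomal protein genes also had replicate 1 highest, in 62 of 86 cases. The highest and lowest arrays were the same for Rn4.5s, with values of 7.71, 6.88, 7.28, 7.44 and 7.54. It is a short 4.5S RNA transcribed by RNA polymerase III whose sequence is related to B1 repeats. For 29 of the 30 brightest genes, Rn4.5s itself counted, every array's deviation from the gene's mean was within 0.5 log2 units of that of Rn4.5s. For the 100 brightest it was 96. This limit is wide: Rn4.5s itself stayed within 0.5 log2 units of its own mean, so a gene with no spread would pass. The share of all genes that pass was not computed. Whether these probes read the named transcripts, a repeated sequence or another source was not tested.

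Across all 5234 genes with at least 2 probes, the brightest probe exceeded the dimmest by a median of 1.7. The gap was within 1 unit for 1677 genes (32.0%) and over 4 units for 820 (15.7%). Of the 66 genes with a second probe among the 100 brightest, 63 stood over 4 units above their next probe. Several transcription factor and cell type markers were affected: Foxl2, an ovarian granulosa cell factor, read 7.03 from its bright probe and -2.29 from its other; Trp63, a basal epidermal factor, read 6.75 and -1.67; and Itgam, a myeloid integrin, read 7.34 and, from its others, -1.88 and -2.53. Eya1, Nanog and Snap25 lay at 6.92, 7.02 and 7.28 on a single probe each, with nothing to set beside it.

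**Figure D1:**
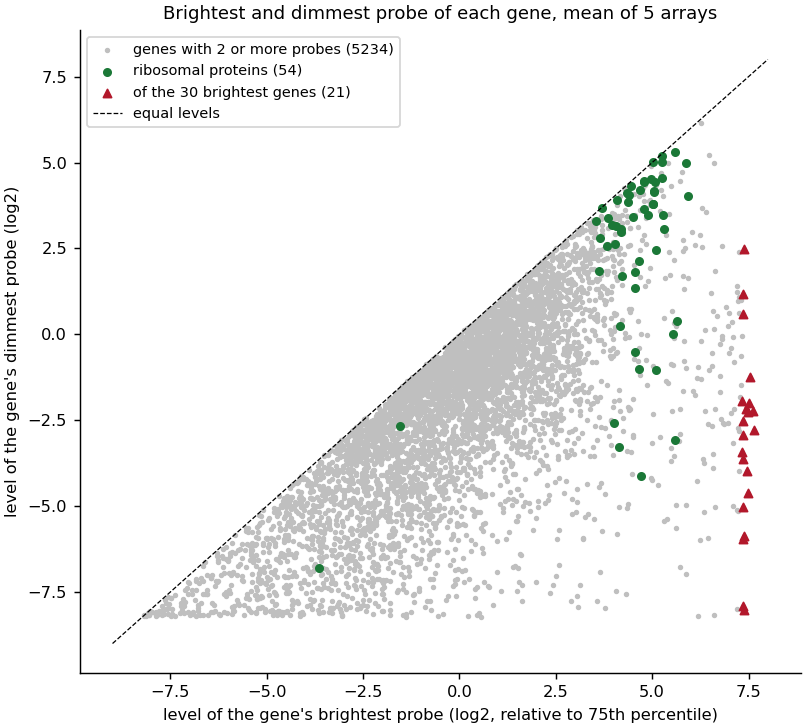
Mean level over the 5 wild-type arrays (log2 relative to the array's 75th percentile) of the brightest probe (x axis) and the dimmest probe (y axis) of each of 5234 genes with at least 2 probes. Ribosomal protein genes (green) range from near the line of equal levels, as Fau with a gap of 0.057, to far below it, as Rpl23 with 5.27. The 21 of the 30 brightest genes with another probe (red) lie at least 4.89 below the line.

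Where every probe of a gene had to be bright, the order changed. This ranking was chosen after the values were seen and holds only the 5234 genes with at least 2 probes. Medag came first, with 6.28 ± 0.18 from its brighter probe and 6.15 from its dimmer one, followed by the ribosomal protein genes Rpl8 at 5.6 ± 0.37 and 5.31 and, after Dcaf12l2, Fau at 5.25 ± 0.27 and 5.2. Of the first 40 genes, 18 encode ribosomal proteins, a family of 86 among the 19657 genes with a symbol. Hbb-y, an embryonic beta-type globin, had 5.0 from its dimmer probe, Sparc, a matrix glycoprotein of mesenchyme, 4.91, and Tpt1 4.68 from its dimmest. H4c9 and H4c12 also stood there, but histone H4 genes encode the same protein and their probes may share transcripts.

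Families of the basic machinery of the cell were almost fully detected, with median SDs below the 0.61 of all genes. Brighter genes had smaller SDs in general. Among genes above background on at least 3 arrays, the median SD was 0.473 for means between 0 and 2. Between 2 and 4 it was 0.37, and between 4 and 6 it was 0.347. Cytosolic ribosomal proteins had a median level of 4.67 and a median SD of 0.3 over 86 genes, of which 85 were above background on all 5 arrays. Rps16 led them, with 6.27, 5.52, 5.8, 5.68 and 6.37 on replicates 1 to 5, and Rpl10a and Rpl18 followed at 5.88 ± 0.52 and 5.68 ± 0.57. The only member with an SD of at least 1 among those detected on 3 or more arrays was Rpl39l, a paralog of Rpl39 best known from testis, at -3.59, 0.17, -3.1, -2.04 and -1.35. Rpl3l, the muscle paralog of Rpl3, was the only one not above background on every array.

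The respiratory chain and ATP synthase family (99 of 101 genes on all 5 arrays) had a median level of 2.85. Its brightest member was Atp5a1, the alpha subunit of ATP synthase, at 5.11 ± 0.39. Its 2 genes with an SD of at least 1 were Cox8b and Cox6a2, subunits that muscle uses in place of the common forms. Cox6a2 read -0.99, 1.85, -0.57, -1.7 and 1.69, high on replicates 2 and 5 and low on the other 3. Nuclear RNA-binding proteins (42 of 42), mitochondrial ribosomal proteins (78 of 78), translation factors (66 of 68) and proteasome subunits (46 of 48) had median levels of 2.77, 1.31, 1.89 and 2.2, and median SDs between 0.28 and 0.37.

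Glycolysis was measured by 24 genes, 23 of them above background on all arrays. Gapdh stood at 5.85 ± 0.38 over 7 probes of which the brightest is given, and Ldha, lactate dehydrogenase A, at 5.58 ± 0.38. The muscle forms again had replicates 2 and 5 as their highest arrays: the enolase Eno3 read 0.32, 3.51, 1.19, 1.67 and 3.27, and the mutase Pgam2 -0.31, 2.18, -1.19, -0.5 and 1.13. Pklr, the pyruvate kinase of liver and red cells, read 2.26, 0.1, 1.97, 0.78 and 3.42 and was highest on replicate 5 and lowest on replicate 2.

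Tubulins were detected in full (23 of 23). Tubb4b was the brightest at 5.71 ± 0.42, and the neuronal Tubb3 varied most at -0.8, 0.72, 4.45, 3.61 and -0.36, with replicates 3 and 4 above the others. Among histones, 58 of 68 genes were above background on all arrays, with a median level of 1.39. The 7 globin genes were all detected on every array, with Hba-a1 and Hba-a2, whose transcripts are nearly identical and cannot be told apart with certainty, at 6.42 ± 0.47 and 6.35 ± 0.62.

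Families of receptors used in sensory epithelia lay at the other end. Olfactory receptors had a median level of -5.83, and 299 of 1047 were not well above background on any array. That is a share of 28.6%, against 5.0% of all genes. Vomeronasal receptors had a larger share, 79 of 218 (36.2%), and a median of -5.95. Bitter taste receptors (9 of 35), NK lectin receptors (6 of 26) and interleukins (7 of 32) also had more undetected members than all genes. The exceptions were few: 6 olfactory receptor genes had a mean level above 0, and Olfr821 alone stood far above the rest at 5.53, 5.21, 4.97, 4.23 and 5.4. Olfr399, the next, was at 1.35 ± 0.91. Both rest on a single probe.

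No interleukin reached the array's 75th percentile on average. Il17d, the brightest, was at -0.11 ± 0.39. Il34, a ligand of the macrophage growth factor receptor, differed between arrays, with 1.42, -1.59, -1.87, 1.58 and -2.37: replicates 1 and 4 were high and the other 3 low. Il17b was high on replicates 2 and 5, at -2.26, 1.97, -2.78, -3.08 and 0.89.

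Solute carriers, the transporters that a working nephron depends on, did not stand out as a family. Of 369 genes, 291 (78.9%) were above background on all 5 arrays and 17 (4.61%) on none, near the shares over all genes, and their median level was -1.75. Keratin-associated proteins (8 of 48 on no array), defensins (10 of 53) and serpins (7 of 57) included more undetected members.

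**Figure D2:**
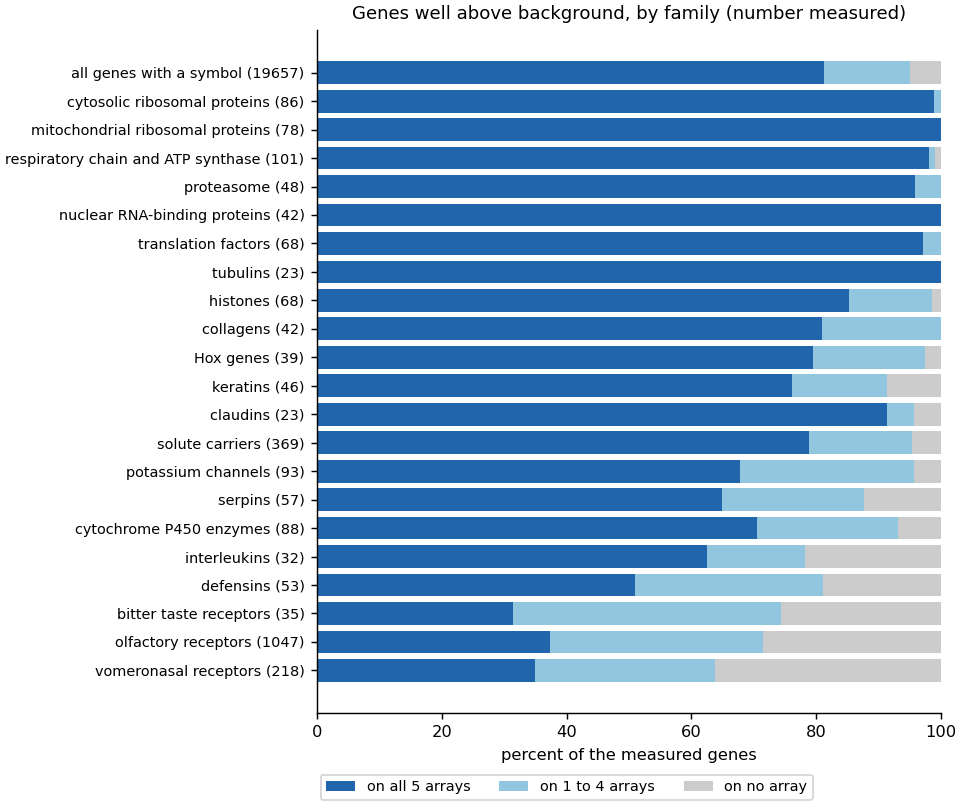
Share of each gene family's members that were well above background on all 5 wild-type arrays, on 1 to 4 and on none, with all genes for comparison (81.2% on all 5). Ribosomal, mitochondrial and RNA-binding families are almost fully detected, and sensory receptor families least.

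The labelled tissue was checked against lists of nephric markers. Of 26 measured transcription factors and inducers of the nephric lineage, 23 (88.5%) were above background on all 5 arrays, near the 81.2% of all genes. None was absent from all, against 5.0% of all genes. Their median level was -1.24, against -1.10 over all genes. A mean level above 0 was reached by 6 of them, Lhx1, Wt1 and Pax2 included, against 35.4% of all genes. Lhx1, a homeobox gene of the nephric duct and early tubule, stood at 2.22, 2.68, 1.69, 1.7 and 1.13, above the 75th percentile on every array. Wt1, a regulator of the nephric mesenchyme and podocyte, read 1.02, -0.04, 0.79, 0.39 and 0.2. Pax2 read 1.67, 0.96, 1.37, 0.07 and 0.47 from its brightest probe. The SDs of these 3 genes were 0.59, 0.43 and 0.65. The 2 dimmer Pax2 probes, also above background on all 5 arrays, had means of -2.05 and -2.34.

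Pax8, the paralog of Pax2 expressed in the same epithelium, read 0.02, -3.11, 0.05, -0.78 and -5.93, a range of 63.2-fold with replicates 1, 3 and 4 high and replicates 2 and 5 low. Both dimmer Pax2 probes had that pair lowest too, over a narrower range, and the brightest Pax2 probe did not. Gata3, a duct factor, had the same pair lowest at 0.9, -2.22, -0.99, -0.79 and -2.36. Not all of the list followed: replicates 2 and 5 were the 2 lowest arrays for 6 of the 26 genes (23.1%), against 12.6% of all genes, and the 2 highest for 4 (15.4%), against 12.7%. In all, 14 of the 26 genes had an SD of at least 1, against 21.3% of all genes measured on at least 3 arrays.

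Proximal tubule genes for uptake and transport were mostly dim. Their median level was -2.44, with 26 of 34 above background on all 5 arrays. Dab2, an adaptor of megalin endocytosis, and Aqp1, a water channel, were even at 2.21 ± 0.43 and 1.57 ± 0.21, though endothelial and other cells express both. Cdh16, the kidney-specific cadherin, read 2.23, -0.64, 1.79, 1.84 and -0.53, high on replicates 1, 3 and 4 and low on 2 and 5. Fxyd2, the gamma subunit of the sodium pump, had 1.87, -1.49, 0.61, 0.82 and -1.39, and Ggt1, gamma-glutamyl transferase, 1.81, -3.57, -0.37, 0.48 and -3.92, a range of 52.8-fold. The same split held for both. Lrp2, which encodes megalin, was highest on replicates 1 and 4 at -0.58, -4.75, -3.79, -0.26 and -4.65. Replicates 2 and 5 were the 2 lowest arrays for 7 of 34 genes of this list (20.6%) and the 2 highest for 4 (11.8%).

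Genes of the mature distal nephron were the least detected of the nephric lists. Slc12a1, the sodium-potassium-chloride cotransporter of the thick ascending limb, Kcnj1, Cldn16 and Tmem52b were not well above background on any array, and Umod, uromodulin, on 1 only. Of the 20 genes, 12 were detected on all 5 arrays, with a median of -3.75. Irx1, a homeobox gene of the intermediate nephron, read 1.6, -1.02, -1.16, 1.57 and -0.25, brightest on replicates 1 and 4, and Irx2 read 1.68, -1.96, -3.72, -1.18 and -1.06, brightest on replicate 1.

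Epithelial genes of the nephric and collecting duct had their highest values on replicate 1 in 23 of 31 cases, against 22.7% of all genes above background on at least 3 arrays. Their mean level over the list was -0.57, -2.44, -1.71, -1.51 and -1.74. Krt18 read 3.32, -0.34, 1.52, 2.51 and 1.07, Epcam, an epithelial adhesion molecule, 2.25, -2.9, -2.03, 0.12 and -0.22, and Tfcp2l1, a factor of the collecting duct, 1.61, -2.75, 0.44, 1.06 and -1.51. Replicate 2 was the lowest array for all 3. Foxi1, the intercalated cell factor, at 4.55 ± 0.87, and Nphs1, nephrin, at 3.92 ± 0.83, were bright, each on a single probe.

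Genes of the adjoining gonad had a list median of -1.16, near the -1.10 of all genes. Those of the germ line and of steroid-making cells were mostly dim, with medians of -3.26 and -2.96. Of 21 gonadal genes, 4 had a mean level above 0. Nr5a1, a gonadal and adrenal factor, was 1 of these at 0.68, 0.99, 0.56, -0.42 and 1.75. Sry, at 0.96 ± 0.71 on a single probe, and Foxl2, bright on 1 of its 2 probes, were others. Amh and Dhh, Sertoli cell signals, lay at -3.54 ± 0.44 and -3.11 ± 0.54. Ddx4, a germ cell helicase, was above background on 3 arrays at -5.58 ± 1.98, and Sycp1, a meiotic protein, on none. Of the steroid enzymes, Cyp11a1 stood at -5.34 ± 1.77 and Cyp11b1 was undetected on all arrays.

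For 318 probes printed at 10 spots, the median SD between spots of 1 array, which holds no difference between samples, was 0.0864, and that between the 5 arrays was 0.54. Over the 17569 genes above background on at least 3 arrays the median SD was 0.59, and 3734 genes (21.3%) had an SD of at least 1. The share rose as levels fell: 47.7% of genes with a mean of -4 or less had an SD of at least 1, against 2.57% of those between 4 and 6. With normexp background correction, which compresses dim signals, 2171 genes passed the same limit.

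Second probes of the same genes show how far a large spread is shared. Of 648 genes with an SD of at least 1 and a second probe above background on at least 3 arrays, 422 (65.1%) had an SD of at least 1 on that probe too, against 18.6% of the other 3983 genes. The second probe had the same highest array in 55.6% of the 648 and in 36.7% of the rest. Of the genes named here, 61 had a second probe above background on at least 3 arrays. It had the same highest array in 36, the same lowest in 26, and lay over 2 log2 units dimmer in 25. Of the 23 with an SD of at least 1, the second probe reached that limit in 20 and had the same highest array in 18. Which of the 2 probes is nearer the gene's own signal was not tested.

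**Figure D3:**
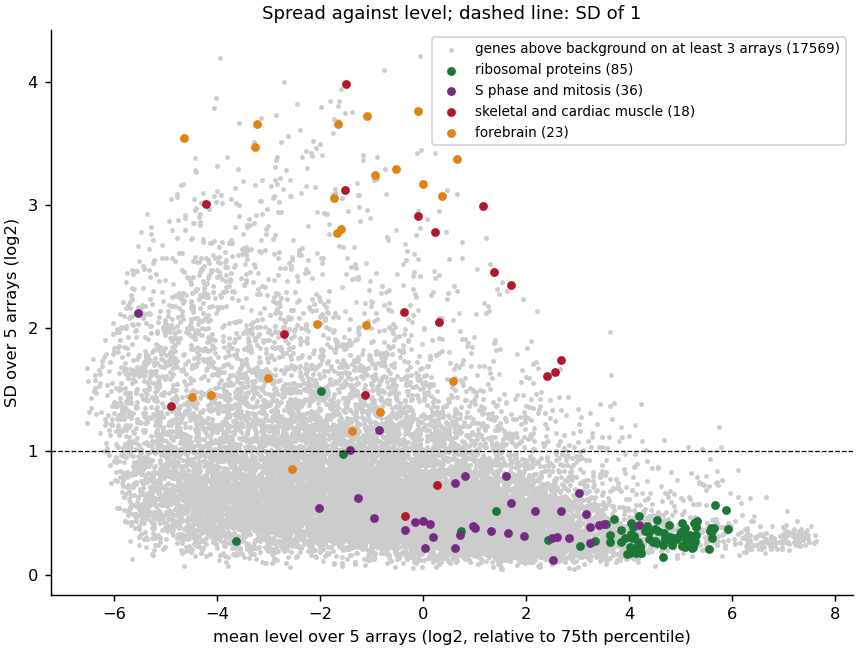
SD over the 5 wild-type arrays against mean level for genes above background on at least 3 arrays, with the limit of 1 marked and ribosomal, proliferation, muscle and forebrain genes in colour. The most varying genes lie among dim and middling levels, and no gene with a mean above 6 reaches the limit.

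The genes of largest spread shared a few profiles across the arrays. Cnmd, chondromodulin of cartilage, headed them at 0.34, 4.28, -7.06, 1.43 and 0.7, a range of at least 1447-fold with replicate 3 at background. Ucma, a cartilage matrix protein, read -7.92, 1.57, -8.09, -1.32 and -3.95. Both were highest on replicate 2 and lowest on replicate 3. Ttn, titin of striated muscle, had -4.93, 2.68, -2.65, -5.35 and 2.76, high on replicates 2 and 5, and so was Actn2, alpha-actinin of the Z disc, at -3.02, 2.57, -5.68, -4.47 and 2.63. Ncan, a brain proteoglycan, had -3.78, -3.37, 4.5, 3.14 and -1.0, high on replicates 3 and 4. The neuronal reticulon Rtn1 shared that profile at -4.51, -1.21, 4.5, 3.89 and -0.17. Among the 3734 genes with an SD of at least 1, replicates 3 and 4 were the highest pair for 709 (19%) and replicates 2 and 5 for 707 (18.9%), and replicate 3 was the lowest array for 1254 (33.6%).

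Lists of other tissues were read array by array to describe these profiles. Those for forebrain, lens and epidermis were drawn up after the varying genes were seen, so their patterns are descriptions of the genes that led to them. In RNA from dissected tissue, fewer cells of a type and less RNA per cell cannot be told apart. The mean over all genes differed far less from array to array than the lists below, at -1.44, -1.46, -1.55, -1.35 and -1.29. What part other tissues have in the levels of nephric genes was not tested.

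Skeletal and cardiac muscle genes were high on replicates 2 and 5, which were the 2 highest arrays for 18 of 19 genes, against 12.7% of all genes. The list's mean was -1.88, 1.99, -2.26, -2.0 and 1.33. Myh3, the embryonic myosin heavy chain, read -0.63, 4.49, -1.11, -1.29 and 4.37, a range of 55-fold. Acta1, skeletal actin, read -0.03, 4.47, -0.46, 0.51 and 4.01. Even on the 3 low arrays Tnnt1, a slow muscle troponin, stayed above the 75th percentile at 1.86, 4.72, 0.78, 1.69 and 4.31. The myogenic factor Myf5 was above background on replicates 2 and 5 only, at -7.82, -4.95, -7.94, -8.24 and -4.22.

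Cartilage and bone genes had replicate 2 as their highest array in 14 of 16 cases, against 14.4% of all genes, and replicate 3 as their lowest in 15, against 26.9%. The mean over the list was -0.05, 3.16, -2.76, 1.48 and 0.18. Col2a1, the main collagen of cartilage, read 3.95, 5.49, 0.27, 4.24 and 4.2, and Acan, aggrecan, 1.09, 4.53, -1.37, 1.81 and 0.27. Ibsp, bone sialoprotein, instead had its highest value on replicate 4 at -3.05, 2.67, -1.04, 4.67 and -0.94. Spp1, osteopontin, which bone, kidney and macrophages express, was likewise highest on replicate 4 at -0.38, 1.48, -1.55, 3.11 and -3.58.

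Forebrain genes had replicates 3 and 4 as the highest pair for 22 of 24 genes, against 14.3% of all genes. Their mean was -3.93, -3.32, 0.84, 0.89 and -3.39. Dlx1, a factor of inhibitory neurons, read -3.22, -1.95, 3.8, 2.99 and -1.63, a range of 129.6-fold. Factors of cortical excitatory neurons and their progenitors were highest on replicate 4. Tbr1 read -4.59, -2.08, 1.74, 3.14 and -2.86 and Eomes -4.57, -2.0, -0.15, 2.41 and -3.67. Nkx2-1, of the ventral forebrain, thyroid and lung, was above background on replicates 3 and 4 alone at -5.64, -8.14, -0.11, -0.98 and -6.47. Of 16 podocyte genes, 2 (12.5%) had replicates 3 and 4 highest, near the share of all genes. These were Ptpro and Magi2, which neurons also express. Ptpro read -4.01, -2.68, 1.01, -0.86 and -3.37 and Magi2 -3.07, -1.96, 0.01, 0.85 and -3.33.

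Lens crystallins were a feature of replicate 3. The lens list averaged -3.28, -3.26, 0.16, -3.42 and -3.3, and 16 of its 19 genes were highest there, against 17.1% of all genes. Cryaa, the alpha-A crystallin of the lens, read -2.51, -3.85, 3.82, -4.15 and -4.21, a range of 261-fold. Its second probe was also highest on replicate 3 but covered 3.94-fold. The beta crystallin gene Cryba1 read -3.73, -4.5, 2.2, -4.63 and -5.08, and the gamma crystallin gene Cryge -6.43, -8.18, 2.91, -5.54 and -6.11, a range of at least 649-fold. Genes of the gamma crystallin cluster are close copies, and their probes may read one another's transcripts. Crybb2, which rises later in lens growth, stayed low on all 5 arrays at -3.6, -3.85, -4.32, -4.5 and -4.33, as did the lens factor Foxe3 at -4.1, -3.21, -4.35, -3.4 and -2.56.

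Epidermal keratins and junction genes were highest on replicate 1 in 16 of 18 cases, against 22.7% of all genes. The mean was 0.66, -1.49, -2.6, -1.83 and -0.86. Krt5, which pairs with Krt14 in basal keratinocytes, read 4.57, 1.88, -0.47, 1.43 and 2.65, and Krt14 4.32, 2.43, -0.12, 1.71 and 1.95. Replicate 1 was highest and replicate 3 lowest for both. Krt1, of the layer above, read 2.54, 0.05, -0.57, -0.31 and -0.47, and its partner Krt10 2.18, 0.27, -0.76, -0.79 and -0.13. Lor, the loricrin of the cornified layer, read 0.33, -1.47, -1.7, -1.91 and -1.91. Duct epithelium genes were highest on the same array, among them general epithelial genes such as Cldn4, a claudin, at 1.51, -0.77, -1.77, 0.43 and 0.24.

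**Figure D4:**
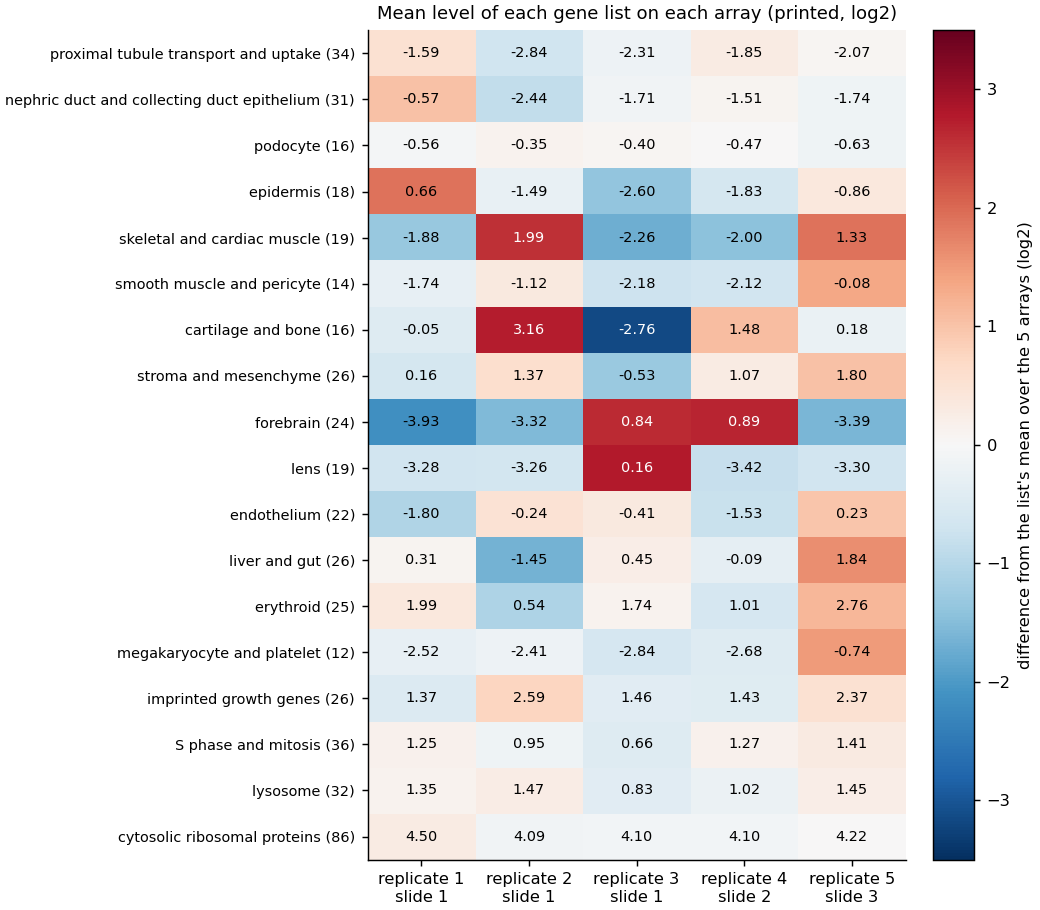
Mean level of 18 gene lists and families (genes measured in brackets) on each of the 5 wild-type arrays, printed as log2 relative to the array's 75th percentile; colour gives the difference from the list's mean over the arrays. Muscle stands out on replicates 2 and 5, cartilage on 2, forebrain on 3 and 4, lens on 3, epidermis on 1, and liver and gut on 5.

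The list of liver and gut genes, most of them for plasma proteins made in liver, had 25 of 26 genes above background on every array; the other was Cdx2, a gut and tail factor. Replicate 5 was highest for 20 of the 26, against 21.8% of all genes, and replicate 2 lowest for 24, against 19.6%. The list averaged 0.31, -1.45, 0.45, -0.09 and 1.84. Alb, albumin, read 4.1, 2.03, 4.69, 3.63 and 4.61, and Afp, alpha-fetoprotein, 3.58, 1.5, 4.03, 3.04 and 4.75. Serpina1a, an antitrypsin, covered a wider range at 1.29, -0.99, 1.62, 0.77 and 4.22; its close copies in the Serpina1 cluster may share its signal. Apoc3, an apolipoprotein, was among the dim members at -4.03 ± 0.96.

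Erythroid genes had a similar order of arrays, with replicate 5 highest for 20 of 25 genes, against 21.8% of all genes, and replicate 2 lowest for 17, against 19.6%. Hbb-y read 6.13, 4.77, 5.04, 4.34 and 6.8, and the embryonic alpha-type globin Hba-x 3.55, 1.83, 1.79, 1.16 and 3.62. Alas2, the first enzyme of red cell heme synthesis, read 4.06, 1.88, 3.45, 2.54 and 3.9. Replicates 1 and 5 were the highest pair for all 3. The erythroid factors behaved alike: Klf1 read 1.98, -0.18, 1.44, 0.34 and 2.97 and Gata1 2.44, -0.25, 1.7, 0.7 and 2.6. The adult-type Hbb-bt was more even at 5.66 ± 0.43. All 25 measured erythroid genes were above background on all 5 arrays, against 81.2% of all genes.

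Several genes of other blood lineages were highest on the same array. Macrophage genes were highest on replicate 5 in 19 of 29 cases, against 21.8% of all genes, among them Adgre1, which encodes F4/80, at -1.01, -0.33, -1.58, -1.86 and 1.3, and the lysozyme gene Lyz1 at -0.65, -0.15, -2.2, -0.75 and 2.04. Platelet genes averaged -2.52, -2.41, -2.84, -2.68 and -0.74. Gp9, of the platelet adhesion receptor, read -3.28, -5.22, -3.44, -2.88 and 0.65, and Ppbp, a platelet chemokine, -1.87, -5.08, -4.21, -1.42 and 1.21. Mpo, a myeloid granule enzyme, read -0.68, -1.21, -3.67, -0.52 and 2.8. The mast cell proteases were highest on replicate 4 instead: Cma1 read -5.39, -4.61, -6.11, 0.57 and -1.93 and Cpa3 -3.62, -3.49, -8.03, 0.01 and -0.53. Csf1r, the macrophage growth factor receptor, was even at 3.82, 3.85, 3.76, 3.67 and 3.6 on its brightest probe alone: its other 2 probes, above background on all 5 arrays, were both highest on replicate 5, with SDs of 0.88 and 1.67.

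Endothelial genes were lower on replicates 1 and 4 than on the other arrays in the list's mean, -1.8, -0.24, -0.41, -1.53 and 0.23. Cdh5, VE-cadherin, read -3.53, 0.15, -1.25, -2.55 and -0.27, and Pecam1 -3.14, -0.47, -0.92, -3.68 and -0.1. Egfl7, an endothelial secreted protein, was the brightest and the most even at 2.84 ± 0.39. Several mesenchymal genes were bright throughout: Col3a1 read 4.78, 5.68, 4.42, 4.5 and 5.68, Sparc 5.05, 5.08, 4.5, 5.14 and 5.03 and Vim, vimentin, 2.63, 3.86, 3.0, 3.64 and 4.24. Replicate 3 was lowest for the first 2 and replicate 1 for Vim. The list averaged 0.16, 1.37, -0.53, 1.07 and 1.8. Meox1, a factor of somite mesoderm, read -1.92, 0.8, -8.07, 0.21 and 0.35, and its paralog Meox2 -7.11, -0.38, -7.96, -1.85 and -0.61. Foxf1, of visceral mesoderm, read -3.33, -4.28, -7.03, -4.53 and 0.45, highest on replicate 5.

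**Figure D5:**
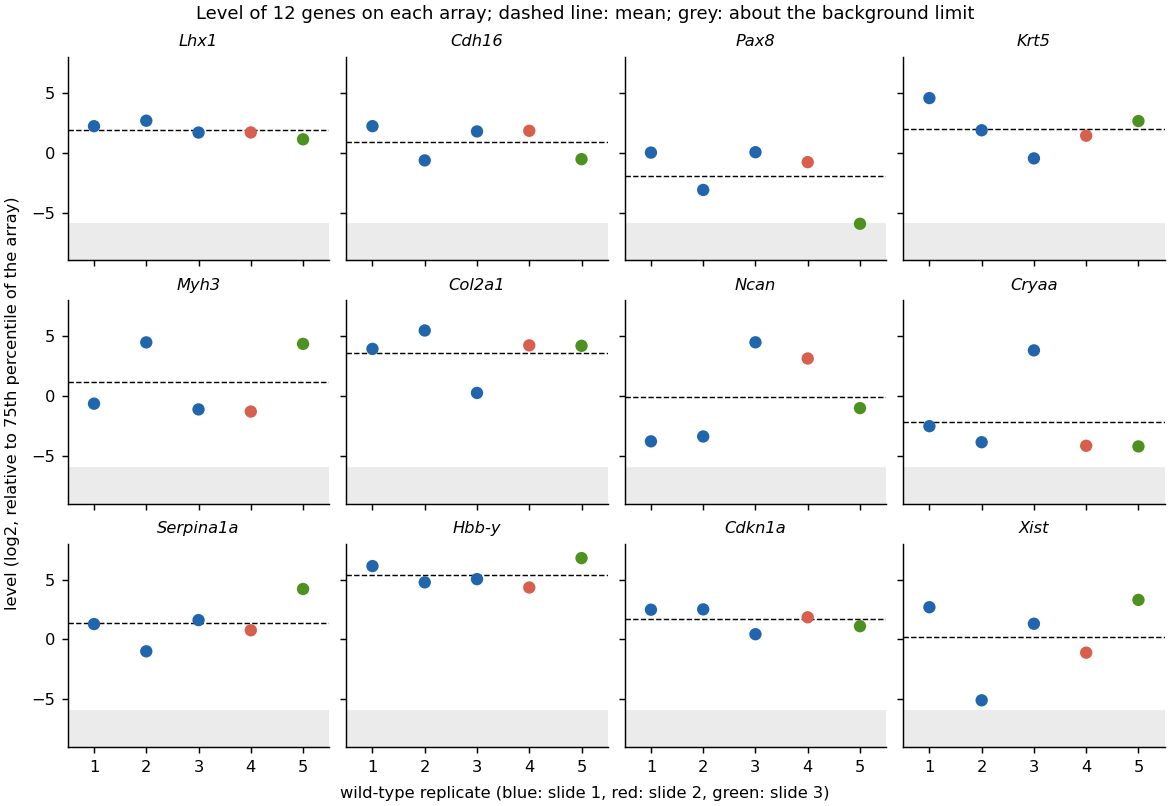
Levels of 12 genes on each of the 5 wild-type arrays (log2 relative to the array's 75th percentile; point colour gives the slide, the dashed line the mean, and the grey band lies below the highest of the arrays' detection floors). Lhx1 lies above 0 on every array, Cdh16 and Pax8 are low on replicates 2 and 5, and Myh3, Ncan, Cryaa, Krt5 and Xist each separate different arrays.

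Sex-linked transcripts also differed. Xist, the non-coding RNA that silences an X chromosome in female cells, read 2.7, -5.09, 1.31, -1.1 and 3.3, a range of 336-fold. The Y-linked genes Ddx3y, Kdm5d and Uty were at background on replicate 5 and above it on the other 4, with Ddx3y at -1.7, -0.0044, -0.88, 0.17 and -8.29 and Kdm5d at -1.16, -1.35, -1.65, -1.13 and -8.3. Xist was above background on all 5 arrays, lowest on replicate 2, and on replicates 1 and 3 it stood above the 75th percentile beside detected Y-linked genes. Eif2s3y, whose X-linked copy Eif2s3x is close in sequence, stayed above background on all 5 arrays at -0.4, 1.16, 1.28, 1.55 and 0.1. So did the Y-linked Sry, the testis-determining gene, which read 1.16, 1.36, 0.8, -0.17 and 1.67 from a single probe and was highest on replicate 5, the array on which the 3 others were at background. The labels do not give sex.

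Hox and matrix genes varied more often than most. Among 39 Hox genes, which encode position along the head-to-tail axis, 31 were above background on all arrays, and 22 of the 36 measured on at least 3 arrays (61.1%) had an SD of at least 1, against 21.3% of all genes. Hoxc4 was the brightest at 2.7, 2.12, 1.98, 1.13 and 1.55. Hoxb8 read 2.2, -2.2, 0.68, 1.39 and -1.98, with replicates 1, 3 and 4 high and 2 and 5 low, the split seen for Pax8 and Cdh16. The more posterior Hoxa10 was lowest on replicate 3 at -1.84, -0.77, -5.66, -0.57 and -1.13, as was Hoxa11 at -3.83, -3.1, -7.95, -0.96 and -4.1. Hoxd11 was highest on replicate 5 at -4.16, -2.89, -4.86, -1.79 and 0.15.

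Of 42 collagens, 27 (64.3%) had an SD of at least 1, against the same 21.3%. The fibrillar chain Col1a2 was bright at 4.43, 5.29, 3.77, 5.25 and 5.27, and its partner Col1a1 at 3.41, 4.78, 3.15, 4.82 and 5.5. Col10a1, of hypertrophic cartilage, read -3.35, 3.72, -1.24, 3.53 and -2.9, and Col22a1, of tissue junctions in muscle and cartilage, -7.86, 1.33, -0.27, 2.49 and 0.53, with replicate 1 at background. Of 11 laminins, Lamb1 was even at 2.53 ± 0.46. Lama1, an epithelial basement membrane chain, was low on replicates 2 and 5 at 1.57, -2.17, 0.41, 0.95 and -0.69. Lama4, of vessel and muscle basement membranes, was high on that pair at 0.02, 2.08, -0.13, -0.2 and 2.23.

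Imprinted growth genes, expressed from 1 parental copy in the embryo, were bright as a list, with a median level of 2.3 and all 26 above background on all arrays. Replicates 2 and 5 were the 2 highest arrays for 18 of 26, against 12.7% of all genes. Igf2, a fetal growth factor, read 3.68, 4.55, 3.19, 3.7 and 5.42, and Mest, 2.17, 4.44, 2.4, 2.91 and 4.51. Cdkn1c, the imprinted relative of Cdkn1a, read 3.95, 5.03, 3.16, 3.82 and 4.29. Replicates 3 and 4 were the 2 highest arrays for 2 of the 26 (7.69%), against 14.3% of all genes. Nnat and Snrpn, imprinted genes active in neurons, had that profile. Nnat read 2.85, 3.31, 5.76, 5.7 and 3.56 and Snrpn -1.26, -1.11, 2.36, 2.14 and -1.29.

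Cdkn1a itself was above background on all 5 arrays at 2.49, 2.52, 0.44, 1.85 and 1.11, a range of 4.22-fold with replicates 1 and 2 highest and replicate 3 lowest. These values rest on the brighter of its 2 probes. The dimmer one read -0.88, -1.38, -1.84, -1.63 and -2.1, a range of 2.34-fold with replicates 1 and 2 again highest but replicate 5 lowest. The other Cdk inhibitor genes Cdkn1b and Cdkn2d, each on its own probe, were at 2.87 ± 0.52 and 1.74 ± 0.44. Cdkn2a, which encodes p16 and p19Arf, was above background on 2 arrays, at -1.9, -6.92, -7.03, -4.36 and -6.13 from the brighter of its 2 probes. Its other probe was above background on no array, at -8.07 ± 0.19. Cdkn2b lay at -1.23, -5.05, -3.66, -3.33 and -4.36, highest on replicate 1 as well. D-type cyclins were bright, with Ccnd2 at 3.71 ± 0.53 and Ccnd1 at 3.29 ± 0.4. Of 21 genes of this list measured on at least 3 arrays, 3 (14.3%) had an SD of at least 1, against 21.3% of all genes. The list's median level was 1.71, and of genes with a mean between 0 and 2 the share was 9.31%.

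Most proliferation genes were bright. Of 36 genes of S phase and mitosis, 35 were above background on all arrays and 3 (8.33%) had an SD of at least 1, against 21.3% of all genes. The list's median level was 1.17. Of genes above background on at least 3 arrays with a mean between 0 and 2, 9.31% had such an SD. The list's share is thus near that of genes of like brightness. Mki67, the proliferation antigen Ki-67, read 2.93, 2.35, 2.32, 2.43 and 2.92, a range of 1.52-fold. Ccnb1, cyclin B1, stood at 3.6, 2.95, 3.21, 3.31 and 4.0 and Mcm4, of the replicative helicase, at 2.52 ± 0.12. The exception Cenpf was at background on replicates 1 and 3, at -7.81, -4.24, -7.94, -3.96 and -3.8.

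Lysosomal genes were detected without exception (32 of 32), and 1 had an SD of at least 1, the bone-resorbing cathepsin Ctsk at -0.35, 1.4, -1.38, 0.22 and 0.11. Lamp1 was bright at 4.2 ± 0.25; Sgsh was brighter still at 7.32, but its other probe read -0.05. Glb1, the lysosomal beta-galactosidase whose activity marks senescent cells, lay at -0.72, -1.22, -1.87, -1.7 and -0.82, below the 75th percentile on every array. A signal of RNA says nothing of enzyme activity.

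Factors that senescent cells are known to secrete were uneven. Of 45 genes, 31 (68.9%) were above background on all arrays, against 81.2% of all genes. Il6, Csf2 and Ereg, 6.67% of the list, were above it on none, near the 5.0% of all genes. The list's median level was -2.35, against -1.10 over all genes. Igfbp5 and Igfbp7, insulin-like growth factor binding proteins, were bright: Igfbp5 read 3.42, 3.9, 3.65, 2.97 and 3.87 and Igfbp7 3.65, 1.82, 3.08, 3.56 and 2.14, the second high on replicates 1, 3 and 4. Il1b and Cxcl1 were dim at -2.78 ± 0.5 and -3.55 ± 1.68. Of the ligands of the TGF-beta pathway, Tgfb2 read 0.69, 1.8, 0.3, 1.37 and 2.44, highest on replicates 5 and 2, and Tgfb1 lay at -2.87, -2.7, -3.01, -2.66 and -0.52. The pathway's list had 35 of 36 genes above background on all arrays and a median level of 0.28, with the receptor Tgfbr1 at 3.0 ± 0.52 and the signal transducer Smad3 at 2.52 ± 0.52, while their second probes lay at -1.91 and -1.93.

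Early response genes, which can rise while tissue is handled, had a median level of -0.75, against -1.10 over all genes. A mean above 0 was reached by 7 of 27, against 35.4% of all genes. Replicate 4 was the highest array for 13 of the 27, against 23.9% of all genes. Fos lay at -2.79, -4.3, -4.36, -3.89 and -4.98 and Egr1 at -0.93, -0.09, -0.2, 1.29 and -1.58. Jund, the member least dependent on stimulation, was the brightest at 3.21 ± 0.34. Hspa1a, an inducible heat shock gene, was low and even at -3.71 ± 0.21.

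Some genes hardly varied at all. Among those with a mean above 0 and detection on every array, Mmadhc, a vitamin B12 trafficking protein, had the smallest SD at 0.045 (rounded values 2.98, 2.89, 2.9, 2.96 and 2.88), and Bud23, a ribosomal RNA methyltransferase, nearly the same at 1.48, 1.47, 1.58, 1.51 and 1.51. Ilkap, Eif4a3 and Ndufa10 followed closely. Nisch, the brightest of the 20 most even, stood at 4.54, 4.47, 4.5, 4.42 and 4.6. In all, 1338 genes detected on every array had an SD under 0.25.

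Single arrays held extremes of their own. Grin3a, a glutamate receptor subunit, was far higher on replicate 2 than elsewhere, at -2.15, 4.09, -2.88, -1.97 and -2.29, a range of 126-fold. Slc26a3, a chloride exchanger of the gut, was highest on replicate 1 and above background there and on replicate 4, at -1.01, -8.24, -8.08, -5.41 and -8.2. Zic5, Lhx5 and Barhl2, neural factors, were above background on replicate 4 alone, with Zic5 at -7.83, -8.15, -7.91, -2.15 and -8.17. All 3 rest on 1 probe each. Cdx2 was above background on replicate 5 alone at -7.9, -8.21, -8.05, -7.72 and -3.23, and Pitx1, a hindlimb factor, at background on replicate 3 alone at -0.68, -0.91, -8.06, 0.23 and 0.64. Kcnj16, a renal potassium channel subunit, spanned 255-fold, with 2.29, -3.2, 1.0, 1.08 and -5.7.

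Promoter letters were read for genes at both ends of the spread, from RefSeq's table of promoters on assembly GRCm38.p6, which matched 15641 of the 19657 genes. A TATA motif (TATAAA or TATATA on the gene's strand, starting 21 to 40 bases before the start) stood in 3.04% of all 27025 promoters in the table and in 3.73% of measured genes. Among genes with an SD of at least 1 it was 5.13%, among 576 genes in the lowest 10% of SD (of those with a mean above 0 and detection on every array) it was 0.868%, and among genes on no array 9.77%. The ratio of observed to expected CpG, which is high in the promoters of broadly used genes, had a median of 0.82 in the most even genes, 0.466 in those with an SD of at least 1 and 0.156 in those on no array. These are descriptions of letters and not of bound factors.

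The lens list had the motif in 9 of 19 promoters (47.4%). Crystallins taken as a family, which overlap that list, had it in 10 of 18 (55.6%), the highest share of the lists and families searched, and epidermis came next to these at 36.4%. The 100 bases before the start are shown for 3 crystallin genes that were high on replicate 3 and for Myh3, high on replicates 2 and 5, with the TATA motif in capitals.
Cryaa (chr17:31677831-31677930, plus strand): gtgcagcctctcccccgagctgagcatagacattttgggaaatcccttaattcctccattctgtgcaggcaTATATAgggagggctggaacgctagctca
Crygf (chr1:65926422-65926521, plus strand): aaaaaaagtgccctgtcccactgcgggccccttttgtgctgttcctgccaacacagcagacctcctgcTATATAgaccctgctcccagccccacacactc
Crygd (chr1:65063441-65063540, minus strand): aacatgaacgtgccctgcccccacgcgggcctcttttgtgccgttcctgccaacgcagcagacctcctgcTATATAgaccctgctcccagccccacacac
Myh3 (chr11:67078200-67078299, plus strand): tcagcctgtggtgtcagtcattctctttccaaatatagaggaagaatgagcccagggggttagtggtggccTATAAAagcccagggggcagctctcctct
The motif began 29 bases before the start in Cryaa, 32 in Crygf, 30 in Crygd and 29 in Myh3. Crygf read -3.21, -3.36, 2.25, -4.17 and -3.6, and Crygd, a close copy in the same cluster, -2.48, -1.65, 1.49, -2.69 and -0.78.

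Proliferation genes had none of these TATA motifs in 31 promoters. The share of measured genes, 3.73%, is too low for a list of this size to be told apart from it. The letters CCAAT or, on the other strand, ATTGG stood in 80.6% of the 31 within the 250 bases before the start. The share was 36% over all measured genes and 34.5% over the whole table. In the lowest 10% of SD it was 35.4%, and in histones 71%. The promoters of Ccnb1 and Top2a are shown with these letters in capitals, and Rps16, the brightest ribosomal gene, for contrast.
Ccnb1 (chr13:100786487-100786586, minus strand): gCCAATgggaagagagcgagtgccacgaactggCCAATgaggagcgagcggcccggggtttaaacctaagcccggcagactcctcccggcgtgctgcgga
Top2a (chr11:99024190-99024289, minus strand): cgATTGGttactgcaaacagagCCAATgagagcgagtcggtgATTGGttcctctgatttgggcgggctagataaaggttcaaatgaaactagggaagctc
Rps16 (chr7:28350589-28350688, plus strand): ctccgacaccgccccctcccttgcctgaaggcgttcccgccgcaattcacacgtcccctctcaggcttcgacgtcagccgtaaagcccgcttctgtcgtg
Ccnb1 held the letters at 2 places and Top2a at 3 in this stretch, and Rps16 at none. The letters TTCCG or CGGAA stood in 75% of ribosomal protein promoters, against 32.2% of measured genes. Top2a, the topoisomerase of dividing cells, lay at -0.57, -0.72, -0.44, -0.26 and 0.22.

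Probes without a symbol were dimmer than the named ones. Of 16075 probes designed on chromosome intervals, 71.5% were above background on all 5 arrays and 5.59% on none, with a median level of -2.97, against -1.28 for 25914 named probes. Their share with an SD of at least 1 was 24%, close to the 22.4% of named probes. Control probes for spiked RNA, which hold no mouse sequence, give a scale for these dim values: of 96 such probes, 44 to 58 were above background on an array, with medians from -6.08 to -5.55.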

How the data were processed

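The 5 wild-type arrays, 1-colour and numbered as replicates 1 to 5, were used. Agilent Feature Extraction 10.7.3.1 had subtracted background and detrended the deposited spot intensities, per the file headers. The authors' deposited log2 table was an alternative only; the submitters' processing notes name limma without its role. Its column values tracked normexp-corrected signals of the same arrays (r of at least 0.999 across probes), and the labels do not state its exact normalization.

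Control spots and software outlier spots were left out, log2 intensities were centred on each array's 75th percentile, spots of a probe were averaged and the probe of highest mean was taken per gene (R 4.3.3, limma 3.58.1, Python 3.11.15, pandas 2.3.3, numpy 2.4.6). A probe counted as above background when at least as many of its spots passed as failed. Accessions were matched to RefSeq symbols: 26056 of 55681 probes had one. Probes missing on any array (354) were left out, which removed 95 genes, Clk2 among them. A fold range is the highest over the lowest array, with an array below its floor, the dimmest signal well above background, taken at that floor and the fold given as "at least". The SD was examined for genes above background on at least 3 arrays. Families were taken by symbol. Scripts were tested on simulated data.

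Genes were named if among the 30 brightest, the 30 of largest SD, the 20 of smallest SD, the 8 of largest gap on each side of each array, the members of short gene lists, or the leading members of families and long lists. Members and lists were chosen with earlier results of these data known. Outside the rule, and chosen after their values were seen, are the forebrain, lens and epidermis lists, the genes ranked by their dimmest probe, and Hoxb8, Lama1, Igfbp7, Il1b and Cxcl1. Some genes are not reported here. Of the lists not described in the text, that of pancreas, lung, stomach and gut lining had a median level of -3.78 and that of skin and the lining of the nervous system -2.2.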

Additional observations from a re-analysis of the deposited data

Results flagged for a closer look

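Of 260 results examined (221 genes and 39 list means), 23 had 1 array standing apart from the other 4, with the gap to its nearest neighbour more than 0.71 of the whole range. Chance alone gives about 1 in 20 for such groups, and genes named for their large gaps were chosen with these values known. Values are log2 levels of the array that stands apart.

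Replicate 3 stood apart 9 times. It was high for the lens crystallins Cryaa at 3.82, Cryba1 at 2.20, Cryge at 2.91 and Crygf at 2.25, and for the lens list's mean at 0.16. The limb factor Pitx1 was low there at -8.06, the posterior Hox gene Hoxa10 at -5.66 and the matrix gene Sparc at 4.5. Kcnj1, a tubule potassium channel not above background on any array, was least dim there at -6.49. Replicate 5 stood apart 6 times: it was low for the Y-linked genes Ddx3y at -8.29, Kdm5d at -8.30 and Uty at -7.79, and high for Cdx2 at -3.23, Tgfb1 at -0.52 and the mean of the megakaryocyte and platelet list at -0.74.

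Replicate 1 was high for Krt1 at 2.54, Lor at 0.33 and the ribosomal fusion gene Fau at 5.73, and low for Col22a1 at -7.86. Replicate 4 was high for the neural factors Barhl2 at -3.15, Lhx5 at -2.88 and Zic5 at -2.15. Replicate 2 was high for Grin3a at 4.09. What sets these arrays apart was not tested.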

How the results depend on the processing

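Only wild-type arrays enter, so every result is a level, a count or a spread. No paired analysis was possible because a single group was used and no array has a partner of its number in it. Genes on all 5 arrays numbered 15965, on no array 982 and with an SD of at least 1 3734. Across all alternatives but those named here, each count stayed within 1.5 times of these. Normexp background correction gave 2171 genes with an SD of at least 1, of which 2149 were among the 3734, and 2221 had one in the deposited log2 table, of which 2156 were. With the software's positive-and-significant call in place of well above background, 268 genes were on no array, and with slide 1 alone 1483 were on none of its 3 arrays, where fewer arrays have to miss a gene. Leaving out each array in turn gave 15995 to 16360 genes on all remaining arrays, 1055 to 1159 on none and 3179 to 3572 with an SD of at least 1. Taking a gene's dimmest probe, an alternative chosen after seeing the data, gave 14954 genes on all 5 arrays and 4210 with an SD of at least 1.

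The highest array of a list's mean stayed the same in 30 of 39 lists under the array median and under the deposited table. It did so in 32 under normexp correction and in 34 under quantile normalization. With 1 array left out, the highest of the remaining arrays was the same in 38 or 39. Each array was scaled on its own, so this count could change only through the choice of probe and does not measure stability. With all 5 arrays kept, the skeletal muscle, cartilage, epidermis, liver and gut, erythroid, and nephric and collecting duct lists kept theirs under those settings. The list of Mullerian and Wolffian duct changed from replicate 1 to 4 under the array median, by 0.003. The lens list kept replicate 3 wherever that array was present. The forebrain list changed between replicates 3 and 4 under normexp correction and the deposited table, by 0.04 and 0.12. The platelet list, on slide 1 alone, changed from replicate 2 to 1. Of 221 genes named, the SD stayed within 1.5 times for 163 under the deposited table, 181 under normexp correction, 190 with the dimmest probe and 201 with the mean of probes, and the level stayed within 1 SD for 199, 200, 180 and 190. Among the settings run, the deposited table and normexp correction thus moved the most spreads, and the choice of probe the most levels; the causes were not tested. Dim signals near background carry the least precision, and 5 arrays limit all spreads.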

Other observations

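Smooth muscle genes were highest on replicate 5 in 9 of 14 cases, against 21.8% of all genes, and 12 of the 13 measured on at least 3 arrays had an SD of at least 1, against 21.3%. Actg2, the smooth muscle gamma-actin, read -0.87, -2.08, -2.9, -2.46 and 1.99, and Synpo2, an actin-binding protein of smooth and striated muscle, -0.67, -2.65, -3.03, -5.1 and 0.04. Rgs5, a pericyte regulator of G-protein signalling, instead was highest on replicate 3 at -3.47, -1.26, 0.78, 0.14 and -1.75. The neuronal stathmin Stmn2 was highest on replicates 3 and 4, as the forebrain genes were, at -2.36, -0.69, 3.33, 3.84 and -0.32. Upk3b, a gene of the lining of body cavities, read -7.78, -5.19, -1.41, -3.22 and -0.29, from background on replicate 1 to near the 75th percentile on replicate 5.

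Genes of cell death and of hypoxia had shares of varying members near that of all genes. Of 24 apoptosis genes, 22 were above background on all arrays and 6 (25%) had an SD of at least 1, as did 26.3% of hypoxia genes, against 21.3% of all genes. Cycs, cytochrome c, was even at 3.25 ± 0.11, as was Casp9, the initiator caspase of its pathway, at 1.77 ± 0.21. Pmaip1, which encodes the p53 target NOXA, was less even at 1.52, -0.73, -2.42, 1.04 and -1.1, with replicates 1 and 4 high. Class I genes of antigen presentation were detected on every array, H2-D1 at 2.01 ± 0.42 and B2m, their shared light chain, at 0.14, 0.74, 0.42, 0.84 and 2.0, highest on replicate 5. Class I genes are alike in sequence and may share signal. Among hypoxia genes, Vegfa stood at 1.85 ± 0.43 and Ddit4, an inhibitor of mTOR signalling, at 2.64, 1.46, 2.37, 2.69 and 0.17, lowest on replicate 5. Igf1, a growth factor of mesenchyme, read -2.49, 1.76, -2.33, -0.11 and 1.36, high on replicates 2 and 5.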
